A study of Mus musculus with 24 samples.

Results

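The 10 genes described here are those of hepatic fatty acid synthesis: the 9 genes Acss2, Acly, Me1, Acaca, Acacb, Fasn, Elovl6, Scd1 and Thrsp, called the enzyme genes below although the Thrsp product is a regulatory protein, and Srebf1, the gene of the transcription factor SREBP-1. They were chosen by name. Every probe set whose platform annotation gives 1 gene symbol, and whose symbol is a member, was taken, which gave 25 probe sets on the array. All 10 genes had at least 1 probe set above the filter on dim signals and stand among 13118 genes tested. Expression was measured in liver of male BALB/c mice, six-week-old when obtained. The animals ate a nonpurified diet for a week and then the purified AIN-93G diet with 0% (control), 0.1%, 0.5% or 1.0% phloridzin for 14 days. Phloridzin is a plant glucoside known to block sodium-dependent glucose transporters. The labels give 6 mice per diet, 3 to a cage, food and water at will, and a dark period in the daytime hours.

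In the liver, citrate from the mitochondria is cleaved by ATP citrate lyase (Acly) to acetyl-CoA, and acetyl-CoA synthetase (Acss2) makes the same product from acetate. Acetyl-CoA carboxylases (Acaca, Acacb) turn it into malonyl-CoA, fatty acid synthase (Fasn) builds palmitate with NADPH that malic enzyme (Me1) helps to supply, and Elovl6 and Scd1 lengthen and desaturate the product. SREBP-1c, made from Srebf1, is a known activator of these genes and responds to insulin, while carbohydrate feeding raises and fasting lowers the pathway's transcripts.

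The 24 arrays did not hold 24 separate RNA samples. In 13 pairs the log2 values of 2 arrays differed by an SD of 0.04 to 0.06 over 1463 bright genes, less than in other pairs of arrays, where the lowest SD was 0.16. A further 8 pairs, at 0.11 to 0.14, shared the deviations of their most variable genes. Arrays joined in this way were averaged and counted as 1 RNA sample, named by the replicate numbers it combines, which left 4 control samples, 3 on 0.1%, 2 on 0.5% and 2 on 1.0% phloridzin. The remaining 4 arrays, 3 labelled 0.1% and 1 labelled 1.0%, held values of 1 RNA and entered no comparison. Array medians ranged from 9.49 to 18.0 in intensity units before scaling. Whether the 11 samples are separate mice is not settled by the files, and the p-values below reflect only how far these samples spread, which may be partly technical.

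The 250 bases before the annotated start are shown for the 4 enzyme genes on which the results below turn. These are Acacb and Acly, the pair with the highest correlation across samples, Fasn, the synthase itself, and Acss2, which had the lowest p against control at 0.1%. Sequences are from RefSeq on build GRCm38.p6, 5′ to 3′ on the gene's strand. Capitals mark matches on either strand to the CCAAT box, CCAAT, or the GC box, GGGCGG, the letters bound by NF-Y and Sp1, factors known to act beside SREBP.
Acacb, chr5:114165268-114165517, plus strand: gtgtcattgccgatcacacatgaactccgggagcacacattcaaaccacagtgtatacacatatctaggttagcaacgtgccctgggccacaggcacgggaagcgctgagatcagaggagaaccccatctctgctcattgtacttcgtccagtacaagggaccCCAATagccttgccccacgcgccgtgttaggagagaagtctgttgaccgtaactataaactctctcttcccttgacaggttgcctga
Acly, chr11:100528001-100528250, minus strand: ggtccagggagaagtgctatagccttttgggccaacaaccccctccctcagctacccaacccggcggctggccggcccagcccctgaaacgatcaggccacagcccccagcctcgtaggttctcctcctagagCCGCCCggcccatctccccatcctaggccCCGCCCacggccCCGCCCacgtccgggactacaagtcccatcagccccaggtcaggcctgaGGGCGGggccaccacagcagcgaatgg
Fasn, chr11:120824548-120824797, minus strand: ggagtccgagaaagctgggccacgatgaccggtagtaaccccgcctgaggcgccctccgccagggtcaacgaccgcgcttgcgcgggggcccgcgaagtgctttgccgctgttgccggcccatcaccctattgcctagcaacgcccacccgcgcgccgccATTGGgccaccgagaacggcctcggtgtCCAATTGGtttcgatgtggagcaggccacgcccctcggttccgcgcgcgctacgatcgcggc
Acss2, chr2:155517793-155518042, plus strand: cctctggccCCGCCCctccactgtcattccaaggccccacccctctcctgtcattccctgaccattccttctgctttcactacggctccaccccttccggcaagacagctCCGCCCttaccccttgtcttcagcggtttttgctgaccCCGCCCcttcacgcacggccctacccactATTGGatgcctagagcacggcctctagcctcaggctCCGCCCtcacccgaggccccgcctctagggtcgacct
Acacb and Fasn hold the CCAAT box, at 1 and 3 places, Acly holds the GC box at 4 places, and Acss2 holds both, at 1 and 4 places. Overlapping matches were counted separately. Windows were matched for 9 of the 10 members, 12 windows in all; Scd1 was not matched. CCAAT occurred in 7 of the 12 windows (58.3%), against 33.8% of 32807 windows of the same length, and GGGCGG in 5 (41.7%), against 32.7%. A sterol-response-like string, TCACNCCAC, and the E-box CACGTG were in 0 of the 12 member windows, and in 1.05% and 6.02% of all windows. These are counts of letters in this stretch and say nothing of what is bound there.

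Transcripts of the pathway read higher in liver of phloridzin-fed mice than in control liver for most members, by at most 1.66-fold on each gene's brightest probe set, and none passed the test over all genes. On 0.1% phloridzin 9 of 10 genes were above the control mean, with Acss2 and Acacb each 1.6-fold higher and Srebf1 the exception. On 0.5% it was 9 of 10, with Fasn the exception, and on 1.0% 8 of 10, with Me1 and Srebf1 below; of all genes 50.6%, 51.1% and 46% were above control. The median log2 difference from control over the 10 genes was 0.39, 0.23 and 0.27 on the 3 diets, against 0.003, 0.007 and -0.02 over all genes.

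In limma's test with Benjamini-Hochberg adjustment over 13118 genes, 0 of 10 members had an adjusted p under 0.05 against control in any of the 3 diets, where 0.0229%, 0.00762% and 0.0152% of all genes did. The lowest adjusted p of a member was 0.48, for Acss2 on 0.1%. At an unadjusted p under 0.05, 5 of 10 members were higher on 0.1% (4.48% of all genes), 2 of 10 on 0.5% (2.52%) and 3 of 10 on 1.0% (2.48%), and no member was lower. In the mean of the 3 diets 5 of 10 were higher at that p (Acaca, Acacb, Acly, Acss2 and Scd1; 2.79% of all genes) and 0 after adjustment, as for all genes (0%). Acacb and Acss2 were in that set on each of the 3 diets, as were 0.206% of all genes; the 3 comparisons share the control samples. Without control replicate 1-3 or without control replicate 5, the count on 0.5% was 1, Acss2 (2.49% and 2.13% of all genes higher). On 1.0% it was then 1, Acacb (2.54% and 2.27%). Without control replicate 2-4 or without control replicate 6 it was 4 on 0.5% (2.33% and 2.26%). With either 1.0% sample left out, the log2 difference on 1.0% ranged from 0.25 to 0.61 for Acss2 and from 0.35 to 0.91 for Acacb.

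All phloridzin samples of a diet were above all control samples for 4 members on 0.1% (Acaca, Acacb, Acss2 and Scd1; 4.13% of all genes), 2 on 0.5% (Acaca and Acss2; 9.16%) and 2 on 1.0% (Acly and Elovl6; 8.23%).

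The split of signs depended on the scaling of the arrays. With each array centred on its median, 9, 6 and 6 of 10 members were above control on the 3 diets, and with no scaling 9, 5 and 2 were. Those settings put the median over all genes at -0.08, -0.09 and -0.20 with centring, and at -0.16, -0.19 and -0.35 without scaling. Relative to it, the members' median was higher by 0.36, 0.21 and 0.26 after centring and by 0.36, 0.21 and 0.25 without scaling.

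**Figure D1:**
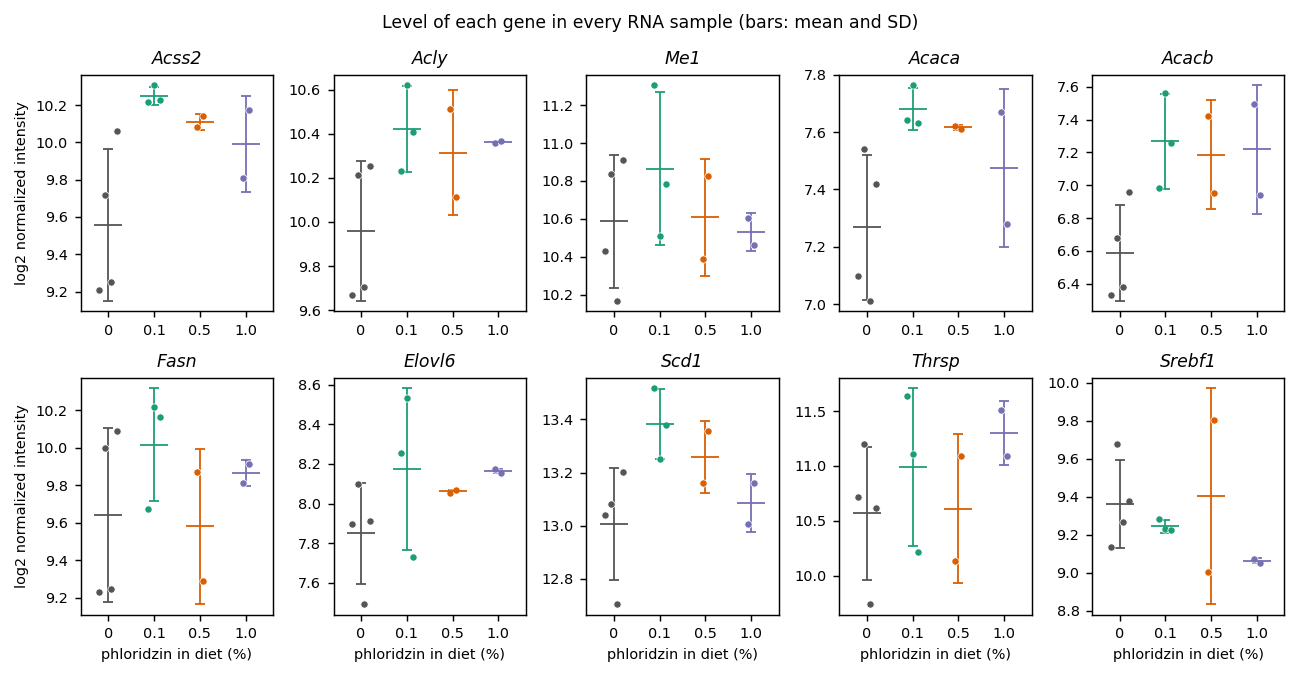
Log2 normalized intensity (y axis) of the 10 genes by percent of phloridzin in the diet (x axis), from each gene's brightest probe set. Each point is 1 RNA sample and bars give the mean and SD of 4, 3, 2 and 2 samples. All 5 phloridzin samples on 0.1% and 0.5% lie above all 4 control samples for Acss2 and Acaca, while Fasn, Me1 and Thrsp overlap control on every diet.

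Acss2 had control levels of 9.21, 9.72, 9.25 and 10.06 on the log2 scale, in the sample order 1-3, 2-4, 5 and 6 used throughout. On 0.1% phloridzin replicates 2, 4 and 5 read 10.22, 10.31 and 10.23. On 0.5% replicates 1-2-3-6 and 4-5 read 10.08 and 10.14, and on 1.0% replicates 2-3-5-6 and 4 read 9.81 and 10.17. All 5 samples on the lower doses were above every control sample, and 1 of the 2 on 1.0% was not. The log2 difference from control was 0.69 ± 0.17 (SE) on 0.1%, with an adjusted p of 0.48 and the rank 36 by p among all genes. It was 0.55 ± 0.20 on 0.5% and 0.43 ± 0.20 on 1.0%, with adjusted p of 0.75 and 0.76.

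Acly read 9.67, 10.21, 9.70 and 10.25 in control liver. The phloridzin values were 10.23, 10.62 and 10.41 on 0.1%, 10.51 and 10.11 on 0.5%, and 10.36 and 10.37 on 1.0%. Control replicates 1-3 and 5 lay below every other sample, whereas replicates 2-4 and 6 overlapped the 0.1% and 0.5% groups, and both 1.0% samples were above all 4. The differences from control were 0.46 ± 0.16, 0.35 ± 0.18 and 0.40 ± 0.18, with adjusted p of 0.50, 0.96 and 0.76. Without probe sets marked x or s in their names, which can detect related sequences, the 0.1% difference was 0.09, and as the mean of all its probe sets it was 0.02.

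Me1, the cytosolic malic enzyme, read 10.43, 10.84, 10.17 and 10.91 in control liver. It read 11.31, 10.51 and 10.78 on 0.1%, 10.39 and 10.83 on 0.5%, and 10.60 and 10.46 on 1.0%. Only replicate 2 on 0.1% lay above the control range. The differences of 0.28 ± 0.20, 0.02 ± 0.23 and -0.05 ± 0.23 had adjusted p of 0.70, 0.996 and 0.98.

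Acaca, the carboxylase isoform known for supplying malonyl-CoA to synthesis, read 7.10, 7.54, 7.01 and 7.42 in control liver. It read 7.64, 7.76 and 7.63 on 0.1%, 7.62 and 7.61 on 0.5%, and 7.67 and 7.28 on 1.0%. The 0.1% and 0.5% samples were all above control, and replicate 4 on 1.0% lay within the control range. The differences were 0.41 ± 0.15, 0.35 ± 0.17 and 0.21 ± 0.17, with adjusted p of 0.52, 0.96 and 0.84. With arrays centred on their medians the last was -0.03, where the median over all genes was -0.20.

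Acacb, the isoform known for malonyl-CoA at the mitochondrial surface, where it restrains fatty acid uptake, had the most even difference over the diets. Control liver read 6.33, 6.68, 6.38 and 6.96. The 0.1% samples read 6.98, 7.56 and 7.26, the 0.5% samples 7.42 and 6.95, and the 1.0% samples 7.49 and 6.94. The 0.1% samples were above all control samples, whereas 1 sample on each higher dose lay just under control replicate 6. The differences were 0.68 ± 0.21, 0.60 ± 0.23 and 0.63 ± 0.23, with adjusted p of 0.49, 0.84 and 0.75. Without either 0.5% or either 1.0% sample the difference on that dose ranged from 0.36 to 0.83 and from 0.35 to 0.91.

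Fasn had a wide spread in control liver, at 9.23, 9.997, 9.25 and 10.09. It read 9.67, 10.21 and 10.16 on 0.1%, 9.87 and 9.29 on 0.5%, and 9.81 and 9.91 on 1.0%. Control replicates 2-4 and 6 were above both samples on 0.5% and both on 1.0%. The differences were 0.37 ± 0.22, -0.06 ± 0.25 and 0.22 ± 0.25, with adjusted p of 0.65, 0.99 and 0.89. The 95% confidence intervals ran from -0.10 to 0.85, from -0.60 to 0.48 and from -0.32 to 0.76, so a difference of 0.4 in either direction on 0.5% could not be told from none.

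Elovl6, which extends palmitate to stearate, read 7.90, 8.10, 7.49 and 7.91 in control liver. It read 8.26, 8.53 and 7.73 on 0.1%, 8.06 and 8.07 on 0.5%, and 8.17 and 8.16 on 1.0%. Both 1.0% samples were above control and replicate 5 on 0.1% was within it. The differences of 0.32 ± 0.18, 0.21 ± 0.20 and 0.31 ± 0.20 had adjusted p of 0.63, 0.98 and 0.80.

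Scd1, the main hepatic stearoyl-CoA desaturase, read 13.04, 13.08, 12.71 and 13.20 in control liver. It read 13.52, 13.25 and 13.38 on 0.1%, 13.16 and 13.36 on 0.5%, and 13.01 and 13.16 on 1.0%. All 0.1% samples were above control and both 1.0% samples were within it. The differences were 0.38 ± 0.11, 0.25 ± 0.13 and 0.08 ± 0.13, with adjusted p of 0.49, 0.96 and 0.93. This probe set ranked from 24 to 113 by signal among the 45101 of an array, and quantile normalization gives such ranks values in a narrow span. Its dimmer probe set read 0.78 ± 0.27, 0.54 ± 0.31 and 0.67 ± 0.31 above control.

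Thrsp, a thyroid- and carbohydrate-responsive protein of lipogenic tissues, varied most. Control liver read 10.72, 11.20, 9.75 and 10.62. The 0.1% samples read 11.64, 11.11 and 10.22, the 0.5% samples 10.13 and 11.09, and the 1.0% samples 11.51 and 11.09. Each phloridzin diet overlapped the control range, which spanned 1.45 log2 units. The differences were 0.42 ± 0.34, 0.04 ± 0.39 and 0.73 ± 0.39, with adjusted p of 0.74, 0.996 and 0.77.

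Srebf1 read 9.13, 9.68, 9.27 and 9.38 in control liver. The 0.1% samples read 9.29, 9.23 and 9.22, the 0.5% samples 9.003 and 9.80, and the 1.0% samples 9.07 and 9.05. The pair on 1.0% lay below all 4 control samples, as 12.4% of all genes did on that diet, and the pair on 0.5% held both the lowest and the highest Srebf1 value of the study. The differences were -0.12 ± 0.17, 0.04 ± 0.19 and -0.30 ± 0.19, with adjusted p of 0.85, 0.99 and 0.79. On 1.0% the difference was -0.58 (adjusted p = 0.15) with arrays centred on their medians. That setting put the median over all genes at -0.20, so part of the shift was shared by all genes. The probe set does not separate the SREBP-1a and SREBP-1c transcripts in the annotation used here, and the arrays do not measure cleavage of the protein, by which it is activated.

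**Figure D2:**
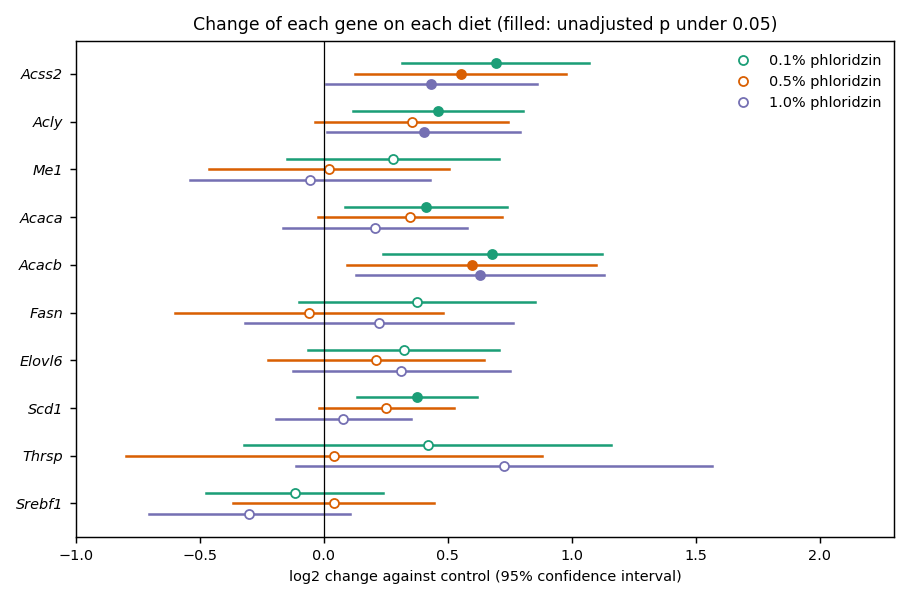
Log2 change against control (x axis) of each gene (y axis) on 0.1%, 0.5% and 1.0% phloridzin; points are the limma estimates and lines their 95% confidence intervals. Filled points have an unadjusted p under 0.05: 5 genes on 0.1%, 2 on 0.5% and 3 on 1.0%, all to the right of 0.

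Compared by diet mean, 0.1% phloridzin held the highest level of 8 of the 10 genes, the exceptions being Thrsp, highest on 1.0%, and Srebf1, highest on 0.5%; 31.2% of all genes were highest on 0.1%. Control held the lowest level of 7 (18% of all genes). No adjacent pair of diets in any gene's order differed by the test over all genes. Between doses, 9 of 10 members were lower on 0.5% than on 0.1% and 9 of 10 lower on 1.0% than on 0.1%, with median log2 differences of -0.12 and -0.17 and with 49.8% and 46.8% of all genes above 0 in these comparisons. Scd1 was the 1 member with an unadjusted p under 0.05 there, at -0.30 ± 0.13 on 1.0% against 0.1% (adjusted p = 0.40), where 7.3% of all genes were lower at that p. This holds for its brightest probe set. The dimmer one read 0.78 above control on 0.1% and 0.67 on 1.0%, a smaller gap between the doses. On 0.5% against 0.1%, 0 of 10 members were lower at that p, against 5.41% of all genes. As a slope on the percent of phloridzin, 0 of 10 members had an unadjusted p under 0.05, against 8.83% of all genes, and 0 an adjusted one (0% of all genes). In the F-test over the 4 diets, 4 of 10 did at the unadjusted threshold (9.25% of all genes), and 0 after adjustment (0.0152%).

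The control samples themselves differed. For 9 of the 10 genes, all but Thrsp, replicates 1-3 and 5 were both below replicates 2-4 and 6, as they were for 15.8% of all genes; this split was chosen after the values were seen. The control range was 0.50 to 0.86 log2 units in 9 genes, wider than most of the differences between diets, with Acss2 and Fasn at the top of it. The mean over the 10 genes, as a difference from the control mean, was -0.16 and -0.34 in control replicates 1-3 and 5 and 0.26 and 0.24 in replicates 2-4 and 6. In the 7 phloridzin samples it ran from 0.19 to 0.47, so that 2 of the 4 control samples lay inside that range. The levels in these 2 control samples and those on phloridzin overlapped in this mean.

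**Figure D3:**
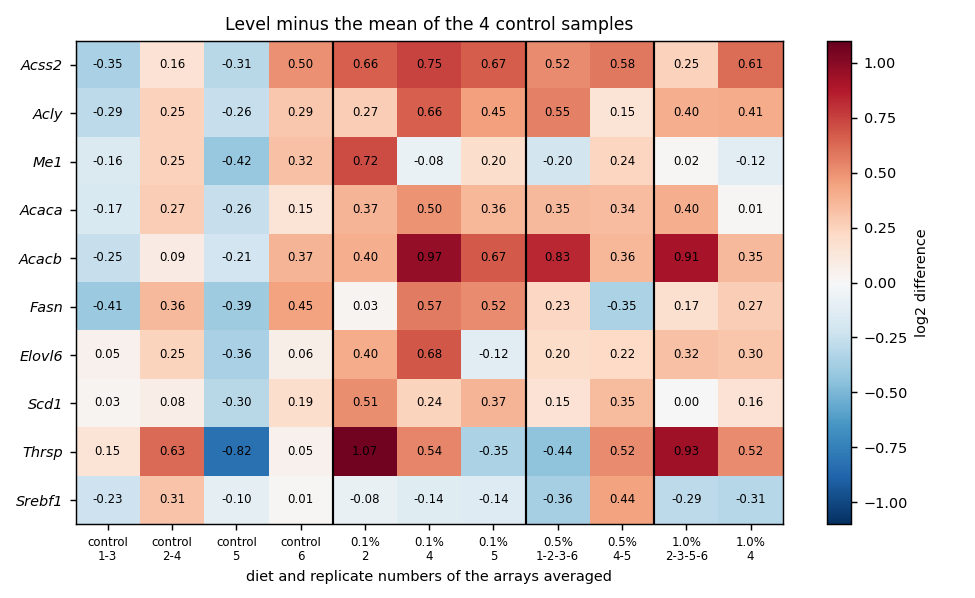
Log2 level of each gene (rows) in each RNA sample (columns, by diet and by the replicate numbers of the arrays averaged), minus the mean of the 4 control samples; red is higher and blue lower. Control replicates 1-3 and 5 are blue in most rows, and Acss2, Acacb, Acly, Acaca and Scd1 are above the control mean in all 7 phloridzin samples. Acaca in replicate 4 and Scd1 in replicate 2-3-5-6 on 1.0% are barely so.

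Of the 25 probe sets, 21 passed the filter and 4 did not: 2 of Acly, 1 of Acss2 and 1 of Acacb, the last at the floor of 3.00 in all 11 samples. Fasn and Srebf1 rest on 1 probe set each. For Acaca the dimmer probe set gave differences of 0.42, 0.23 and 0.16, all of the same sign as the brighter one. The dimmer Acss2 probe set gave 0.45 ± 0.16, 0.50 ± 0.18 and 0.19 ± 0.18, with adjusted p over all probe sets of 0.43, 0.76 and 0.88. The dimmer Me1 probe set read 0.32 ± 0.15, 0.24 ± 0.17 and -0.15 ± 0.17.

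The 4 Acly probe sets above the filter did not read alike. On 0.1% the brightest read 0.46 above control and the next brightest 0.09, while the dimmer pair read -0.25 and -0.22. On 1.0% all 4 were above control, by 0.13 to 0.40. The dimmest Elovl6 probe set, at -0.00, -0.37 and 0.64, opposed the other two on 0.5%. The second Thrsp probe set, at 0.23 ± 0.41, -0.22 ± 0.46 and 0.71 ± 0.47, was likewise highest on 1.0%, but its 0.5% value lay below control where that of the brightest was level with it.

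The third Thrsp probe set was dim in control liver, at 3.58, 3.97, 3.00 and 3.00, the last pair at the floor. It read 5.77, 5.14 and 5.63 on 0.1%, 3.03 and 4.64 on 0.5%, and 6.25 and 4.74 on 1.0%. All samples on 0.1% and 1.0% were above all control samples, and on 0.5% 1 of 2 was. Of all genes, by their brightest probe sets, 4.13% and 8.23% were so on 0.1% and 1.0%. The share over all probe sets was not counted. The fitted differences were 2.12 ± 0.42, 0.45 ± 0.48 and 2.11 ± 0.48; they depend on the floor. The adjusted p over 27023 probe sets was 0.31, 0.99 and 0.53, and the unadjusted p was under 0.05 on 0.1% and 1.0%. At an unadjusted p under 0.05, 9.23% and 6.54% of the 27023 probe sets were called on those diets. The filter used the mean over all arrays, and the mean of this probe set in control liver was 3.39. It may have passed only through the phloridzin samples where it read high, so its p-values and its separation from control are no support for a difference.

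**Figure D4:**
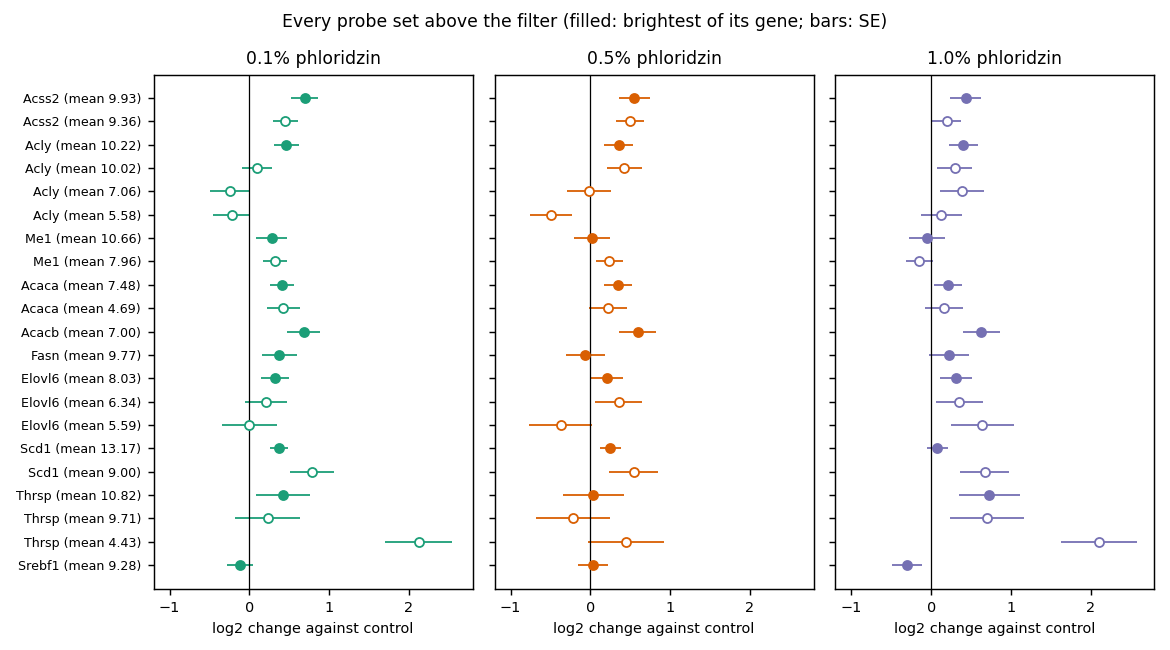
Log2 change against control (x axis, with SE) for the 21 probe sets above the filter, named by gene and mean log2 intensity (y axis), in a panel for each diet. Filled points are each gene's brightest probe set; the dimmest Thrsp probe set stands at 2.12 on 0.1% and 2.11 on 1.0%, and the Acly probe sets lie on both sides of 0 on 0.1%.

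Across the 11 RNA samples the 9 enzyme genes varied together. All 36 pairs had a positive Pearson r, with a median of 0.59 and a range from 0.14 to 0.92, and 10 pairs had a permutation p under 0.05 after Benjamini-Hochberg adjustment over the 36. The same shares over pairs of all genes were not counted, so these counts do not show how far the members stand out. Fasn, at r = 0.60 with Acaca, ranked 282 by that r among 13117 genes. Acacb and Acly had the highest r, 0.92 (adjusted permutation p = 0.00216), with rho = 0.84 (adjusted p = 0.0229). It was 0.83 with each diet's mean subtracted and 0.85 without the 2 samples farthest from the Acacb median. Among 13117 other genes, Acly was the nearest to Acacb by r. Acly and Acss2 were next, at r = 0.86 (adjusted permutation p = 0.0205) and rho = 0.73 (adjusted p = 0.0876). Acaca and Acacb had r = 0.85 and rho = 0.91 (adjusted permutation p = 0.00888 and 0.00936), and r was 0.74 within diets. Acly and Fasn were the fourth pair, at r = 0.85 (adjusted permutation p = 0.00888) and rho = 0.78 (adjusted p = 0.0465), with r = 0.98 within diets. Acacb and Fasn were not among the 10, at r = 0.67 (adjusted permutation p = 0.0667). With each diet's mean subtracted their r was 0.78 (adjusted permutation p = 0.0435), and 7 of the 36 pairs had an adjusted p under 0.05. The p-values within diets take no account of the diet means removed, so they are likely too small. Each gene stands here by its brightest probe set, which for Acly is marked x. The next brightest Acly probe set differed from it most in replicate 4 on 0.1%, at 9.69 against 10.62. Enzyme-pair correlations with that probe set were not computed, so the Acly relations hold for the brightest one only.

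Part of this rested on control replicates 1-3 and 5. Without them r was 0.65 for Acly and Fasn and 0.62 for Acaca and Acacb. It was 0.36 for Acly and Acss2 (0.86 with all samples), 0.33 for Acaca and Acly (0.83) and 0.11 for Acaca and Acss2 (0.78), so these 3 relations rest on those samples. Scd1 and Me1 had r = 0.78 with all samples and 0.39 without control replicate 5 and replicate 2 on 0.1%, the 2 farthest from the Scd1 median. Elovl6 and Thrsp had r = 0.78 with all samples (adjusted permutation p = 0.0215; rho = 0.86, adjusted p = 0.0229) and 0.79 without the 2 farthest from the Elovl6 median. The weakest pairs were Acacb and Me1 and Fasn and Thrsp, at 0.14 and 0.15. All samples share 1 normalization.

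No relation of Srebf1 with its known targets passed the test in these samples. Over the 9 enzyme genes Pearson r with Srebf1 ran from -0.29 (Acacb) to 0.45 (Me1), and the lowest adjusted permutation p, over 9 relations, was 0.89. Fasn had r = -0.17 and rho = -0.01, and Scd1 r = 0.21 and rho = 0.31. Me1 had rho = 0.65 with a permutation p of 0.034, 0.303 after adjustment, and r = 0.49 without the 2 samples farthest from the Srebf1 median. With each diet's mean subtracted, r was 0.59 for Thrsp and 0.58 for Me1 (permutation p = 0.053 and 0.062, not adjusted). These p-values take no account of the diet means removed, so they are likely too small. With 11 samples, such values leave wide room for a relation in either direction.

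**Figure D5:**
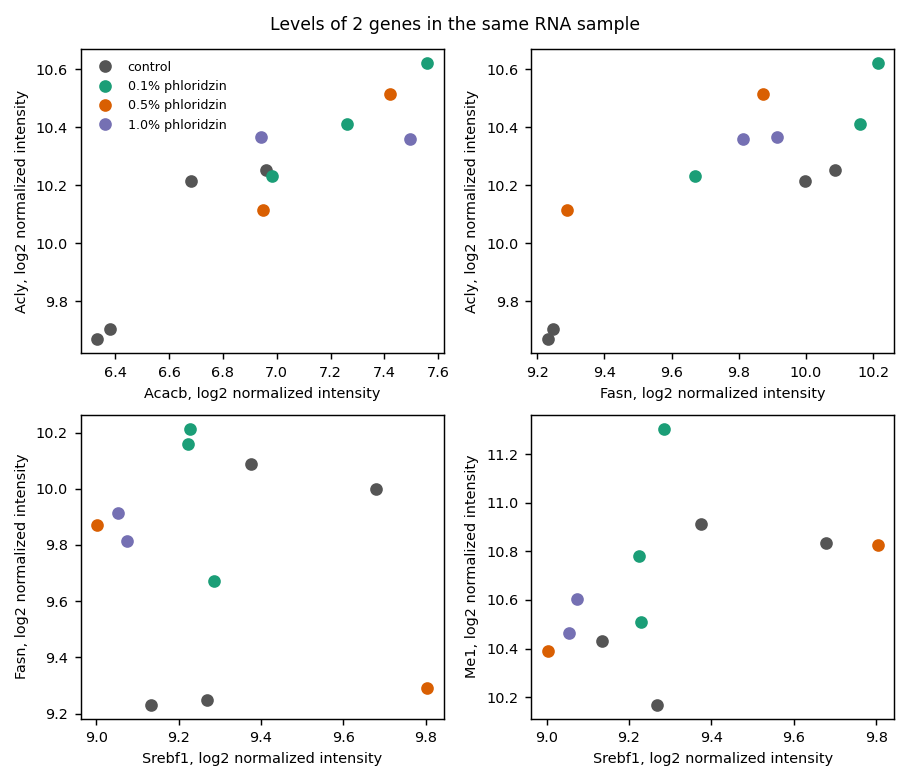
Log2 normalized intensity of a pair of genes in the 11 RNA samples, from each gene's brightest probe set, coloured by diet. The panels show Acly against Acacb and against Fasn, and Fasn and Me1 against Srebf1. The Acly panels slope upward at r = 0.92 and 0.85 with 2 control samples at the lower left, and the Srebf1 panels give r = -0.17 and 0.45.

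The genes whose levels were most like Fasn by Pearson r over the 11 samples were Zfp239 (0.95), Zfp251 (0.94), Map1s (0.88), Smtn (0.87) and Nsmf (0.87). The first 4 are dim, with mean log2 levels of 3.80 to 4.80. Those most like Srebf1 were Pmpcb (0.89), Mcts1 (0.87), Nhlrc3 (0.85), Syne2 (0.84) and Hpgd (0.81). No enzyme gene was in either set of 5.

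Other genes of the pathway were taken from lists and counted at an unadjusted p under 0.05 against control, where 4.48%, 2.52% and 2.48% of all genes were higher and 3.99%, 2.71% and 4.02% lower on 0.1%, 0.5% and 1.0%. None passed the test over all genes. Of 10 measured genes that supply citrate, carbon or NADPH, 4 were higher on 0.1%, 2 on 0.5% and 0 on 1.0%, with 0 lower on any diet. On 0.1% these were Pklr, liver pyruvate kinase, at 0.52 ± 0.13; Pgd, of the pentose phosphate pathway, at 0.54 ± 0.15; Tkt, transketolase, at 0.39 ± 0.12; and Slc25a1, the mitochondrial citrate carrier, at 0.34 ± 0.12. Pgd read 8.04, 8.63, 8.26 and 8.55 in control liver and 8.63, 9.12 and 8.96 on 0.1%, above or level with all control samples. On 0.5% they were Pgd, at 0.49 ± 0.17, and Slc13a5, the plasma membrane citrate transporter, at 0.72 ± 0.24. The list's median differences were 0.12, 0.08 and -0.03.

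Of 15 measured regulators of SREBP processing and lipogenic transcription, 1 was higher and 2 lower on 0.1%, 0 either way on 0.5%, and 1 higher and 1 lower on 1.0%. Insig1, which retains the SREBP precursor in the endoplasmic reticulum and is itself an SREBP target, read 0.42 ± 0.18 above control on 0.1% and 0.49 ± 0.20 on 1.0%. Insig2 read -0.26 ± 0.11 and Fbxw7, of the ligase that degrades nuclear SREBP, -0.43 ± 0.19 on 0.1%. Scap, the escort of SREBP, read -0.39 ± 0.16 on 1.0%, with 8.69 and 8.57 against control values of 8.93 to 9.09. The list's medians were -0.01, -0.06 and 0.04.

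Among 9 genes that control acetyl-CoA carboxylase or remove malonyl-CoA, Trib3, a pseudokinase, was the 1 with an unadjusted p under 0.05. It read 0.95 ± 0.31 on 0.1% and -0.85 ± 0.35 on 0.5%, and was 4.77 and 5.79 in the pair of 0.5% samples against 5.79 to 6.35 in control. The list's medians were 0.16, -0.06 and 0.08, with the AMP-activated kinase subunits and Mlycd, malonyl-CoA decarboxylase, in it. Of 16 other elongases and desaturases, Elovl3 read -0.47 ± 0.18 on 0.1%, Tecr, of the elongation cycle, -0.46 ± 0.16 on 0.5%, and Elovl2 0.39 ± 0.13 on 1.0%; the other counts were 0. Of 15 genes of fatty acid activation and triglyceride assembly, Pnpla2, a triglyceride lipase, read 0.41 ± 0.15 on 0.1% and Lpin1, a phosphatidate phosphatase, -0.57 ± 0.26 on 0.5%. On 1.0% Acsl4 read 0.50 ± 0.15 and Mogat1 -0.99 ± 0.34. The medians of these last lists were between -0.06 and 0.06.

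Feeding state and clock genes also differed between samples, and their part in the lipogenic values was not tested. Of 10 measured fasting-response genes, 3 were lower on 0.1% and 1 on 1.0% at an unadjusted p under 0.05, and 0 were higher on any diet; the medians were -0.16, -0.12 and -0.27. Igfbp1, which insulin is known to repress, read 8.16, 9.52, 8.72 and 9.32 in control liver, 7.23, 8.24 and 8.36 on 0.1%, 8.9998 and 7.52 on 0.5%, and 6.97 and 7.52 on 1.0%. Both 1.0% samples were below control, by 1.69 ± 0.43 on the log2 scale (adjusted p = 0.62). G6pc, glucose-6-phosphatase, and Txnip read -0.61 ± 0.28 and -0.46 ± 0.15 on 0.1%.

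The mean of 16 clock genes was -0.72 from control in 0.5% replicate 1-2-3-6, against -0.19 to 0.36 in the other samples. Nr1d1, a repressor in the clock, read 3.56 and 5.51 on 0.5% and 6.46 to 6.69 in control liver. Per1 and Per3 read 1.54 ± 0.37 and 0.93 ± 0.40 above control on 0.1%. Per1 was near the floor in control replicates 5 and 6, at 3.09 and 3.00.

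The tissue label matched its markers. Of 10 hepatocyte markers, 9 lay between 10.6 and 14.1 in all samples and Ass1, whose probe set read 3.72 to 5.51, did not. Adipose tissue shares the lipogenic enzymes: of its 10 listed markers, 7 had a probe set of their own, Lep was at the floor in all 11 samples and Adipoq in 8, never above 3.22, while Fabp4, which macrophages and capillary endothelium also express, read 6.45 to 7.06, and the summed intensity of the 3 above the filter was 133 to 159 in control and 119 to 148 on phloridzin. Kupffer cell markers summed to 3081 to 3614 in control and 2549 to 3414 on phloridzin, and sinusoidal endothelial markers to 1804 to 1912 and 1373 to 1890. Stellate cell markers summed to 2181 to 2706 and 2245 to 2661, and the 3 pancreatic acinar markers above the filter, of 10, to 50.0 to 75.6 and 60.3 to 105. Of 6 cholangiocyte markers 3 dim ones, Krt19, Epcam and Sox9, were above the filter, and Cftr was at the floor in all 11 samples. The summed intensity of these 3 was 31.0 to 43.6 in control and 36.1 to 67.4 on phloridzin, above all control samples in 5 of 7, the exceptions being replicate 5 on 0.1% and replicate 2-3-5-6 on 1.0%; the part of these markers in the lipogenic values was not tested. The lowest Kupffer and endothelial sums were both in replicate 4 on 0.1%, which also had the highest 3′ minus 5′ log2 signal of the actin control probe sets, 2.32 against 1.21 to 1.78 elsewhere. It held the highest level of 6 of the 10 members and of 11.5% of all genes. Without it, Acss2, Acacb, Scd1 and Me1 were the 4 members with an unadjusted p under 0.05 on 0.1% and Acly and Acaca were not (5.72% of all genes were higher at that p). In whole liver, fewer cells of a type and less RNA per cell cannot be told apart.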

How the data were processed

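The series holds 24 Affymetrix arrays of liver RNA. The deposited table gives a linear intensity per probe set and array; how the authors summarised, background-corrected or scaled the values is not given in the sources used here. Per the labels' protocols, cDNA was made with a T7-oligo(dT) primer and transcribed into biotin-labelled cRNA. Genes were named from the platform annotation where it lists 1 symbol.

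Values were quantile normalized, set to at least 8 (log2 of 3.00) and taken to log2. The 40% dimmest of the 45101 probe sets were left out, and each gene took its brightest remaining probe set. Near-copy arrays were averaged (SD of the log2 difference under 0.08 over genes with a mean log2 level above 9, then a fingerprint ratio under 1.2, the median absolute difference of the 200 most variable genes over that of the other genes above 7). RNA labelled with 2 diets was left out. limma 3.58.1 in R 4.3.3 (lmFit, eBayes with an intensity trend, 7 residual degrees of freedom) tested diets in 1 fit, two-sided, called at an adjusted p under 0.05. The number of samples limits the precision. Correlations used 100000 permutations, two-sided; the 36 enzyme pairs were added after the 9 relations with Srebf1.

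The members, lists, sample joins and tests were chosen with earlier results of these data known. All 10 members were named, of each pathway list those with the 3 lowest p per diet where their p was under 0.05, and the 5 genes nearest to Fasn and Srebf1. Alternatives covered scaling, floor, filter, probe sets, variance model, sample joins, a replicate block and each sample left out.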

Additional observations from a re-analysis of the deposited data

Results flagged for a closer look

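The RNA that carries the labels of 2 diets, 0.1% replicates 1, 3 and 6 and 1.0% replicate 1, entered no comparison. In the mean of its 4 arrays Acacb read 7.05 and Scd1 13.31, each above all 4 control samples, which reached 6.96 and 13.20; of all genes 34% were above all control samples in this RNA, so 2 of 10 is no result about the members. The other 8 members lay within the control range. In control liver, the 1 diet with at least 4 samples, none of the 21 member probe sets above the filter had a sample set apart from the other control samples by Dixon's criterion. No member differed between phloridzin doses after adjustment over all genes.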

How the results depend on the processing

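In the settings that keep near-copies together, no member was called in any diet. No setting moved the members' median on 0.1% or 0.5% by more than the SD of the control samples' means over the members. Those means ran from -0.34 to 0.26, and their SD is wider than the median of 0.23 on 0.5%. A complete loss of that difference would not have counted as moved. Without scaling, 5 of 10 members were above control on 0.5%. Treating all 24 arrays as separate samples called 4, 3 and 1 members on 0.1%, 0.5% and 1.0% and 2632, 448 and 402 genes; this counts copies as replicates. With the replicate block the members called were again 4, 3 and 1 and the genes 2726, 433 and 348. Deviations of same-numbered arrays of different diets correlated from -0.15 to 0.42, above 0.1 in 6 of 36 pairs, against 23 of 180 with other numbers. These pairs include near-copy arrays and are not independent, so they cannot settle whether the numbers pair the arrays.

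The count of members at an unadjusted p under 0.05 moved as follows. Without scaling it was 1 on 0.1% (0.938% of all genes higher), 0 on 0.5% (0.473%) and 1 on 1.0%. The last was Srebf1, lower, and the members' median on 1.0% was -0.10. With arrays centred on their medians it was 1 on 0.5% (1.29% of all genes higher) and 1 on 1.0%, the latter Srebf1, lower. In these 2 settings the share of all genes lower on 1.0% was not counted, so the Srebf1 counts stand without it. With a floor of 32 it was 1 on 0.5% (2.82% of all genes higher) and 1 on 1.0% (2.37%). Without the filter or without the intensity trend it was 1 on 1.0% (2.56% and 2.55%). With only repeat hybridisations averaged (13 samples) it was 4 on 0.5% (4.51%). With all 24 arrays it was 5 on 0.5%, without and with the replicate block (9.16% and 9.12%). With 1 sample left out, and at least 2 kept in the diet counted, it ranged from 4 to 7 on 0.1%, where 3.31% to 5.95% of all genes were higher. It ranged from 1 to 4 on 0.5% (2.13% to 3.88%) and from 1 to 4 on 1.0% (2.15% to 3.9%). A group left with 1 sample is assumed to vary like the others.

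Genes called over all genes numbered 3, 1 and 2 as reported. They were 1, 3 and 0 with centred arrays, 0, 2 and 1 without scaling, and 1, 4 and 16 with a floor of 32. Without a floor there was 1 on 0.1%, without the filter 1, 9 and 8, and without the trend 0 in each. Only repeats averaged gave 18 on 0.5%, and RNA of 2 labels placed in both groups gave 0 in each. With 1 sample left out the ranges were 0 to 2, 0 to 8 and 0 to 2.

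Of 690 log2 changes of members under alternatives, 45 turned sign, none of them called. With all 24 arrays, with or without the replicate block, Elovl6 read -0.0052 and Srebf1 0.025 on 0.1%. On 0.5% Fasn read 0.046, Me1 -0.068, Thrsp -0.25 and Srebf1 -0.11 in those settings, and 0.037, -0.052, -0.12 and -0.094 with only repeats averaged. With centred arrays Me1, Thrsp and Srebf1 read -0.15, -0.15 and -0.14 on 0.5%, and Acaca and Fasn -0.033 and -0.091 on 1.0%. Without scaling Elovl6, Me1, Thrsp and Srebf1 read -0.038, -0.25, -0.26 and -0.24 on 0.5%. On 1.0% without scaling Acaca, Acly, Acss2, Fasn, Scd1 and Elovl6 read -0.19, -0.069, -0.042, -0.25, -0.087 and -0.11. Leaving out 1 sample moved Fasn from -0.35 to 0.23, Me1 from -0.20 to 0.24, Thrsp from -0.44 to 0.52 and Srebf1 from -0.36 to 0.44 on 0.5%. On 1.0% it moved Scd1 from -0.022 to 0.16 and Me1 from -0.19 to 0.054. The cause of these shifts was not tested. Of 81 correlations with Srebf1 under alternatives, 10 moved by more than the jackknife error.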

Other observations

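In the 4 arrays of the RNA labelled with 2 diets, the members read 7.18 ± 0.05 for Acaca, 10.21 ± 0.01 for Acly, 10.05 ± 0.02 for Acss2, 9.999 ± 0.04 for Fasn, 7.57 ± 0.09 for Elovl6, 10.58 ± 0.01 for Me1, 10.90 ± 0.01 for Thrsp and 9.57 ± 0.02 for Srebf1 (log2, mean and SD over arrays of 1 RNA, which is technical spread). Scd1 had the same value, 13.31, on all 4, because quantile normalization gives equal ranks equal values.

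The means over the 10 members and over the 10 fasting-response genes, as differences from control, were as follows. Control replicates 1-3, 2-4, 5 and 6 had members at -0.16, 0.26, -0.34 and 0.24. Their fasting genes were at -0.04, -0.09, -0.02 and 0.14. Replicates 2, 4 and 5 on 0.1% had members at 0.43, 0.47 and 0.26 and fasting genes at -0.40, -0.25 and -0.10. Replicates 1-2-3-6 and 4-5 on 0.5% had members at 0.19 and 0.29 and fasting genes at -0.03 and -0.14. Replicates 2-3-5-6 and 4 on 1.0% had members at 0.31 and 0.22 and fasting genes at -0.44 and -0.15. The relation of these means was not tested.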
